A study of Mus musculus with 2 samples.

Results

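Beta crystallins are structural proteins of the vertebrate lens, and the 6 genes described here, Cryba1, Cryba2, Cryba4, Crybb1, Crybb2 and Crybb3, encode the mouse family. Members were all probes whose platform gene symbol equals one of these names: 8 of the 45281 probes on the array, for 6 of the 19057 genes with a named probe. Cryba1 and Crybb3 had 2 probes each and the other genes 1. Total RNA from the lens of E12.5 mouse embryos was hybridised to 1-colour Illumina expression arrays, 1 array for lens epithelium and 1 for lens fibers, both from wild-type lens. The sources used here do not give the strain, the number of embryos behind each sample or the way the epithelium was parted from the fibers.

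Crystallins fill the cytoplasm of lens fiber cells, which elongate from the lens vesicle and the epithelium, and their dense, ordered packing keeps the lens clear. Beta crystallins share their Greek key fold with the gamma crystallins but assemble into dimers and larger complexes. They are divided into acidic (Cryba) and basic (Crybb) members, the basic ones carrying extensions at both ends of the protein. Large Maf factors, Prox1, Sox and Pax6 are among the regulators described for their genes.

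With 1 array per tissue there was no replicate, so no test, p-value or error between replicates could be had, and every value describes these 2 arrays. Intensities are on the linear scale after quantile normalization. All ratios are fibers over epithelium. The floor, the 95th percentile of 1578 probes for receptor and hair keratin-associated genes taken to be silent in lens, was 44.5 for epithelium and 32 for fibers. A gene counted as measured when at least 1 array read above its floor, and 6451 genes did. In these bulk samples, fewer cells of a type and less RNA per cell cannot be told apart.

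Known markers above the floor on both arrays followed the labels. Of 9 measured fiber markers, 8 were 2-fold or more higher in fibers, by ratio or bound. Among them was the lens water channel Mip (3206.5 in epithelium and 19878 in fibers). However, 6 of the 9 were above the floor in fibers alone, so their bounds could point only to fibers. The 3 above both floors, Mip, Jag1 and Cdkn1c, each reached 2-fold. All 6 measured epithelium markers went the other way by at least 2-fold, 5 of them above both floors and 1 by a bound. Among the 5 were Cdh1, E-cadherin (854.5 and 164) and Pdgfra, a growth factor receptor (425.5 and 155). The epithelium markers Foxe3, Top2a and Fzd6 and the fiber markers Gja3 and Birc7 were below the floor on both arrays. Of 45 markers of other cells on the array (retina, periocular mesenchyme, pigment cells, surface ectoderm, endothelium, blood and macrophages), 13 were measured. At 2-fold, 3 of these were higher in epithelium and 0 in fibers, beside 19% and 15.6% of all measured genes. The 3 were Sfrp2 of the retina list (1256 in epithelium and 139.5 in fibers), Tfap2b of the mesenchyme list (208.5 and 36) and the globin gene Hbb-bt (141.5 and 7). Another globin gene, Hbb-bs, was bright on both arrays (3458 and 2458.5). The share of other cells in each sample was not tested.

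The beta crystallins were higher in the fibers, apart from Crybb2, which was not above the floor in either tissue. By the brighter probe of each gene, 5 of 6 genes were at least 2-fold higher in fibers, and 0 were so in epithelium. Of all 6451 measured genes, 15.6% were higher in fibers by that measure and 19% were higher in epithelium. The 5 genes were above the floor on both arrays, so none entered through the fibers array alone. Their median log2 ratio was 3.03 (8.19-fold), against -0.03 over all measured genes with a ratio or a bound, and the 5 ran from 1.71 to 4.21. Among 92 genes on both arrays with a mean intensity at or above that of the dimmest of the 5, which themselves are counted in, 22.8% reached 2-fold towards fibers and 7.61% towards epithelium.

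Among the basic members, Crybb1, whose protein carries a long extension at its start that is trimmed as the lens ages, read 183.5 in epithelium and 3389 in fibers. The fibers value was 18.5-fold higher, a log2 ratio of 4.21. With each gene taken by its brightest probe, this was the highest of the 2986 genes above the floor on both arrays. Over all 3597 such probes it was at rank 2, below a second Crygn probe at 4.43. Genes with only a bound stand outside these ranks, and the highest bound towards fibers was 5.11. The epithelium value was 4.12 times the floor, so Crybb1 was detected in both tissues and its epithelium signal was 5.41% of its fibers signal. As deposited, before normalization, the same probe read 183 and 3519.

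Crybb3, another basic member, was measured by 2 probes that gave the same direction. The brighter probe read 636 in epithelium and 6548 in fibers, 10.3-fold higher in fibers (log2 ratio 3.36). The dimmer one, annotated to a cDNA clone of the gene, read 75 and 1011.75, 13.5-fold higher (3.75). The probes differed by 0.39 on the log2 scale, less than the median difference of 0.51 between the brightest 2 probes of a gene over 472 genes with a pair above the floor on both arrays. By its brighter probe, Crybb3 stood at rank 11 of 2986 genes.

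Crybb2, the third basic member and a major crystallin of the adult lens, read 7 in epithelium and 11 in fibers. Both values were below the floor, at 0.16 and 0.34 times it, so no ratio was taken. The gene has 1 probe here, and whether that probe detects the transcript in a lens that makes it was not tested. Crybb1 and Crybb3, the basic genes that were measured, stood above every acidic member in log2 ratio. Crybb3 did so by only 0.33 over Cryba4, less than the median difference of 0.51 between probes of 1 gene.

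Among the acidic members, Cryba4 read 1511.5 in epithelium and 12383 in fibers, 8.19-fold higher in fibers (log2 ratio 3.03, rank 24). Cryba1, from which a pair of proteins is made by alternative start codons, read 986.5 and 5261.5 by its brighter probe, 5.33-fold higher (2.42, rank 49). Cryba2 read 693.25 and 2263, 3.26-fold higher (1.71, rank 155), the smallest difference of the measured members. The epithelium signal was thus 12.2% of the fibers signal for Cryba4, 18.7% for Cryba1 and 30.6% for Cryba2, against 9.71% for the brighter Crybb3 probe.

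The second Cryba1 probe, annotated to the same transcript, gave a smaller difference. It read 1282.5 in epithelium and 2870.5 in fibers, 2.24-fold higher in fibers (1.16). This probe was brighter than the first in epithelium and dimmer in fibers. The log2 ratios of the pair differed by 1.25, more than the median difference of 0.51 over all such pairs. Over the 472 genes with such pairs the difference was below 1.84 for 90 percent of genes, and 26.5% of the pairs gave opposite signs, which neither pair of beta crystallin probes did.

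**Figure D1:**
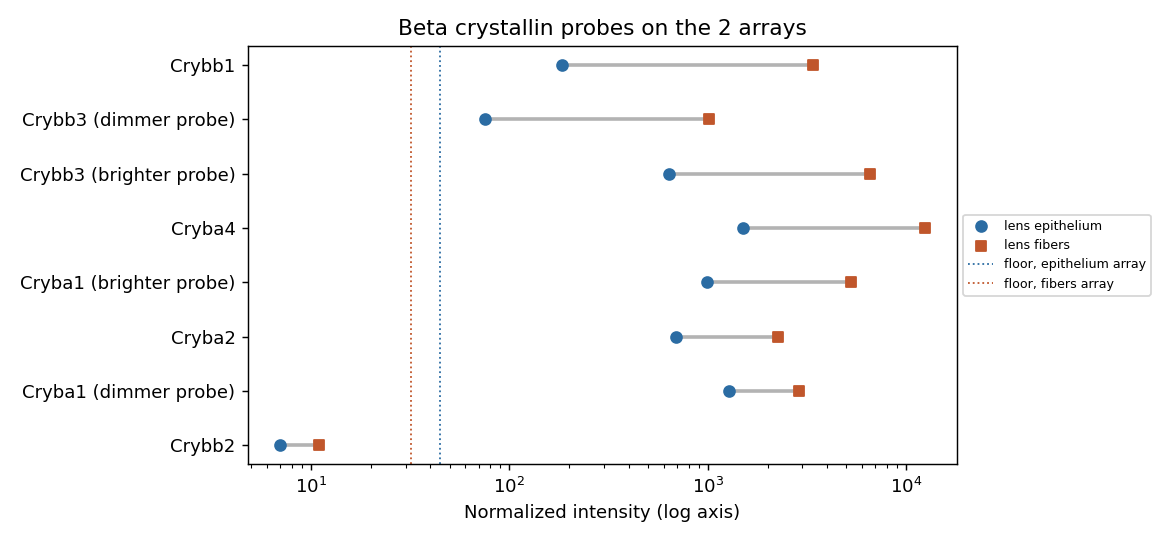
Normalized intensity (log axis) of each of the 8 beta crystallin probes on the epithelium array (circles) and the fibers array (squares), ordered by log2 ratio, with each array's floor as a dotted line. All 7 probes above the floors lie higher in fibers, from 2.24-fold to 18.5-fold, and the Crybb2 probe lies below both floors at 7 and 11.

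The order of the ratios was Crybb1, Crybb3, Cryba4, Cryba1, Cryba2. The steps between neighbours in that order were 0.84, 0.33, 0.62 and 0.71 on the log2 scale, each less than the 1.84 that bounds 90 percent of probe pairs of 1 gene. Only the step from Crybb3 to Cryba4 lay below the median probe difference of 0.51. With the second probe in place of the first, Cryba1 at 1.16 would fall below Cryba2 at 1.71, so the order of these neighbours depended on the probe.

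The 8 probes together held 0.25% of the summed positive signal of the epithelium array and 1.62% of that of the fibers array, as deposited. The share was 6.34 times larger in fibers. It is a share of probe signal and not of transcripts, since probes differ in how brightly they report.

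Members stood at the upper end of the ratios of the whole array. Of 2981 other genes above the floor on both arrays, 150 (5.03%) had a log2 ratio at or above that of Cryba2, the lowest measured member, and 21 (0.70%) at or above the members' median. Genes most like the members were sought among 37 genes outside the lists with a fibers intensity of at least 2263, by the distance of their log2 ratio from the members' median over the 2 arrays. The nearest was Rasl11b, a small GTPase of the Ras family, at 1475.5 and 6565 (4.45-fold higher in fibers), 0.88 from the median. The next were Wnt7b, a secreted Wnt ligand (2.83-fold), Tubb2b, a beta tubulin (2.65-fold), Nap1l4, a histone chaperone (2.16-fold), Ssr3 (1.99-fold) and Mgarp (1.87-fold). Apart from Rasl11b, each of these 6 had a log2 ratio below that of Cryba2. By its second brightest probe Rasl11b was at 1.29, also below Cryba2. Scaled to a housekeeping list, described below, Wnt7b (0.68), Tubb2b (0.64) and Nap1l4 (0.40) fell short of 2-fold.

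**Figure D2:**
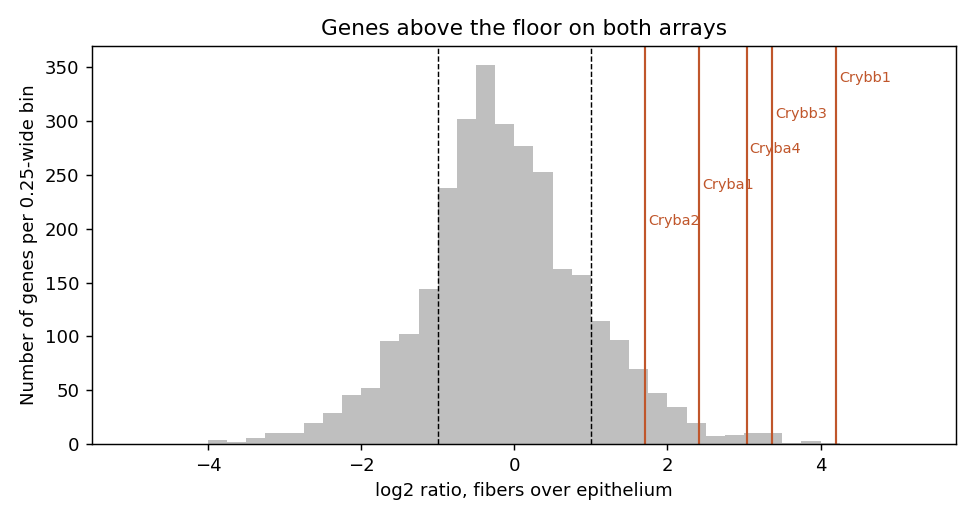
Number of genes per bin of log2 ratio (fibers over epithelium) for the 2986 genes above the floor on both arrays, with a line at each of the 5 measured beta crystallin genes and dashed lines at 2-fold. The members lie between 1.71 (Cryba2) and 4.21 (Crybb1), on the fibers side.

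The scaling between the arrays set the size of these ratios but not their direction. Genes of a housekeeping list were mostly higher in fibers too: 9 of 19 measured ones reached 2-fold in that direction and 0 in the other. Their median log2 ratio was 0.84, but they ran from -0.71 to 3.18, so a factor taken from them is uncertain. Scaled to 12 of these genes, Crybb1 was 10.8-fold higher in fibers, Crybb3 5.28-fold, Cryba4 4.56-fold, Cryba1 2.95-fold and Cryba2 1.89-fold, the last below 2-fold. The second Cryba1 probe was then 1.25-fold higher. Genes higher in fibers made up 45.1% of all genes called at 2-fold, against 9.76% with housekeeping scaling and 62.7% with a loess fit. The median of all measured genes moved from -0.03 to -1.22 and 0.19 respectively. The members' median was 2.19 with housekeeping scaling, beside -1.22 over all genes. This scaling divides every fibers value by 1 factor (0.83 in log2). It therefore cannot move members against other genes above the floors on both arrays, beyond their deposited ratios. The fibers floor also fell, to 18.0 against 45 for epithelium, which shifted the bounds that enter the median of all genes.

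**Figure D3:**
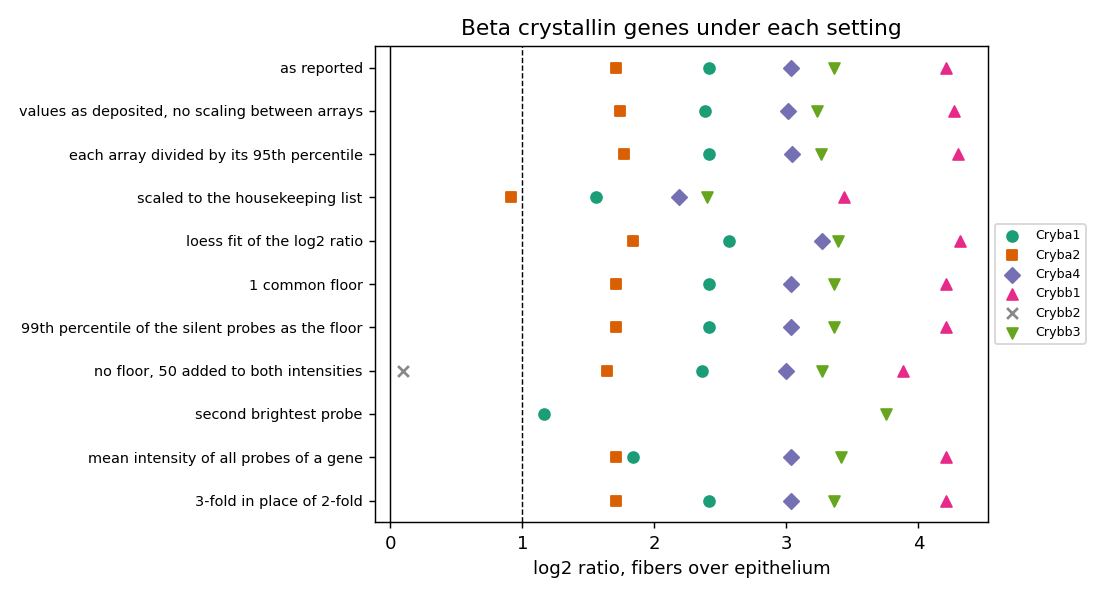
Log2 ratio (fibers over epithelium) of each beta crystallin gene under the reported setting and 10 alternatives, with 0 as a solid line and 2-fold as a dashed line. Every plotted value lies above 0, and Cryba2 with housekeeping scaling (0.92) and Crybb2 with no floor (0.10) lie below 2-fold.

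The other crystallins were higher in fibers as well. Of the 10 alpha and gamma crystallin genes, 9 reached 2-fold (median log2 ratio 2.82), and Cryab, a small heat shock protein, had only a bound, at least 1.28-fold. With housekeeping scaling 8 reached 2-fold, Cryga was at 0.42 in log2 and Cryab had no value. The 8 gamma crystallins ran from 2.32-fold (Cryga) to 13.5-fold (Crygc), a range that overlaps the 3.26-fold to 18.5-fold of the beta crystallins. These are the brightest probes, and Crygn, 7.33-fold by that probe, had another at 21.5-fold (80.5 and 1729.75) and one with a bound of at least 31.6-fold, both above every beta crystallin probe. Crystallin transcripts resemble each other within a family and probe sequences were not used here, so signal shared between paralogs was not tested. The epithelium signal of Mip was 16.1% of its fibers signal, within the 5.41% to 30.6% of the 5 beta crystallin genes. The 11 fiber markers on the array summed to 3834 in epithelium and 23223.5 in fibers. Lim2, a fiber membrane protein, Bfsp2, a beaded filament protein, Caprin2 and Tdrd7 were below the floor in epithelium (11, 12, -7 and 37). Hsf4 (16), Dnase2b (42.5), Gja3 and Birc7 were below it too. Besides Mip, Jag1 (117) and Cdkn1c (392) were above that floor, with an epithelium signal of 16.2% and 40.3% of their fibers signal. The part of fiber RNA in the epithelium values was not tested.

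Of 22 regulators of crystallin genes on the array, 14 were measured. At 2-fold, 4 lay towards fibers and 3 towards epithelium, beside 15.6% and 19% of all measured genes, and 2 had no direction (median 0.39). Nothing particular to the list is read from these counts. Of the probes taken to be silent, 32 were above the floor on both arrays, with log2 ratios from -2.31 to 2.36. Every ratio and bound of the regulators, as reported, lay within that range. The intensities of those probes were not compared with the regulators. Mafg, a small Maf partner protein, was at 117.5 in epithelium and at 602.5 in fibers, 5.13-fold higher, and its second probe was 3.06-fold higher. Prox1, a homeobox factor required for fiber elongation, read 631.5 and 1758.25 (2.78-fold), with a second probe at 4.91-fold. The heat shock factor Hsf4 and Ep300, an acetyltransferase and coactivator, exceeded the floor in fibers alone, at least 3.06-fold and 2.83-fold higher. With the 99th percentile of the silent probes as the floor their log2 bounds were 0.30 and 0.19, below 2-fold, and the other 3 Ep300 probes were below the floor on both arrays. Maf, the large Maf factor of fiber cells, was at 70 in fibers and below the floor in epithelium, at least 1.57-fold higher.

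Of the same list, Pax6, Pitx3 and Tfap2a were higher in epithelium. Pax6, a paired-box factor that the eye needs to form, was at 195 (epithelium) and 69 (fibers) or 2.83-fold lower in fibers, and its second probe gave 3.59-fold. Pitx3, a homeobox factor, was at least 3.03-fold and Tfap2a, the AP-2 alpha factor, at least 2.58-fold higher in epithelium. Tfap2a fell short of 2-fold with 1 common floor (-0.89), with loess (-0.88) and with no floor (-0.98), and neither gene had a value with the 99th percentile floor. Rxrb, a retinoid receptor, had a log2 ratio of -0.86, the chromatin remodeller Smarca5 -0.19, Meis2, a homeobox factor, 0.45 and the retinoic acid receptor Rarb a bound of 0.32. Meis2 was at -0.38 with housekeeping scaling. Six3 and Meis1 exceeded the floor in fibers alone and had no direction. Mafa, Mafk, Sox1, Sox2, Foxe3, Gata3, Crebbp and Smarca4 were below the floor on both arrays. With housekeeping scaling, 1 regulator lay towards fibers and 5 towards epithelium at 2-fold, and Prox1 (0.65), Hsf4 (0.76) and Ep300 (0.65) fell short of it.

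**Figure D4:**
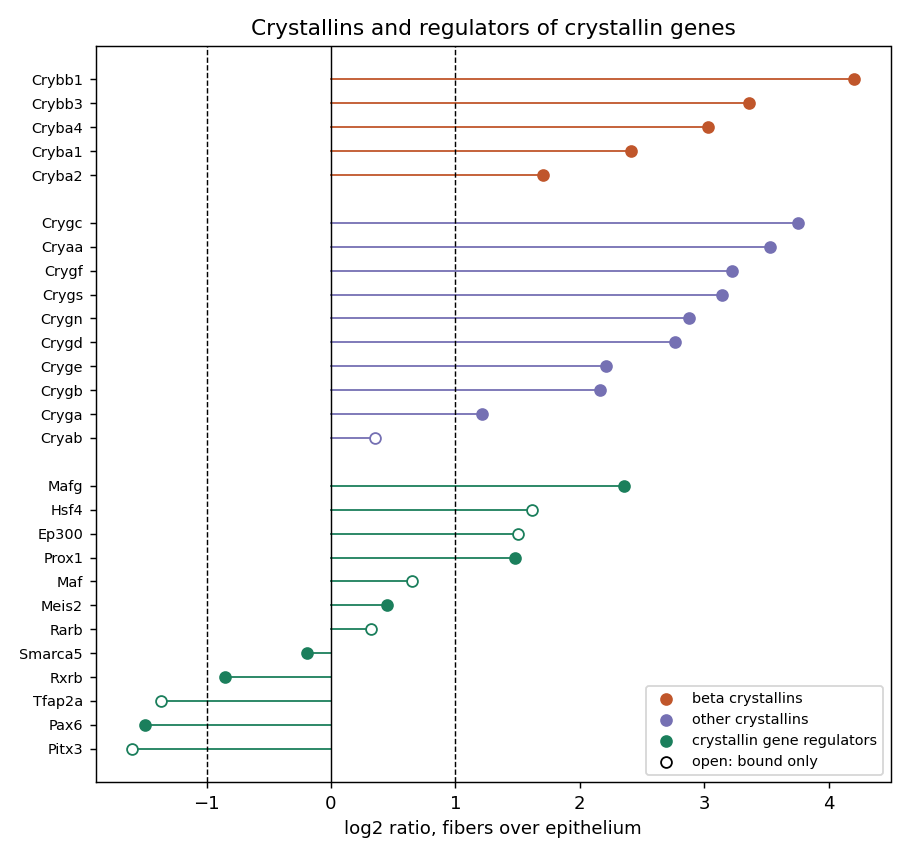
Log2 ratio (fibers over epithelium) of the measured beta crystallins, other crystallins and regulators with a direction; filled points are above the floor on both arrays, open points are bounds, and dashed lines mark 2-fold. All crystallins lie above 0, while the regulators run from -1.60 (Pitx3) to 2.36 (Mafg).

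Of the 6 members, 4 lie on mouse chromosome 5 as neighbouring pairs, Cryba4 with Crybb1 and Crybb2 with Crybb3. Cryba4 and Crybb1 are on opposite strands, with 3302 bases between their annotated starts, and both were higher in fibers (8.19-fold and 18.5-fold). Crybb2 and Crybb3 are on the same strand, with 11467 bases between their starts, and Crybb3 was 10.3-fold higher in fibers while the single Crybb2 probe was below the floor.

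Few genes around the members were measured, and their directions depended on the scaling. Of 24 other protein-coding genes within 3 places of a member, 19 had a named probe, 13 were below the floor on both arrays and 6 were measured. At 2-fold, 1 lay towards fibers and 1 towards epithelium, beside 15.6% and 19% of all measured genes. Myo18b, a myosin gene near Crybb2, was at least 2.56-fold higher in fibers but had a log2 bound of 0.12 by its second brightest probe. Pitpnb, a lipid transfer protein gene near Cryba4, was 2.88-fold higher in epithelium, but had log2 values of -0.89 with the 99th percentile floor and -0.97 with no floor, short of 2-fold. Nufip2 and Taok1, beside Cryba1, had log2 ratios of -0.47 and -0.72, and Tpst2 and Tfip11 near Crybb1 had no direction. With housekeeping scaling, Pitpnb (-2.37), Taok1 (-1.55) and Nufip2 (-1.26) were past 2-fold towards epithelium, and Myo18b was at 0.51. With that scaling, 2737 of 6420 measured genes were called towards epithelium.

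The sequences before the starts of the 5 measured genes are given because these genes had a like direction, and they are from RefSeq (build GRCm38.p6), in which all 6 members were found. Each is the 250 bases before the annotated start, 5′ to 3′ on the strand of the gene. Capitals mark matches, on either strand, to TATAAA (a core promoter element), TGCTGAC (an arm of the Maf recognition element), AACAAT (Sox), CACTTCC (Prox1-like), TGATTA (homeobox-like) and TGACTCA (the core shared by Maf and AP-1 elements), the last added after the sequence of Cryba2 was seen. The starts are annotated ones, and whether the lens uses them was not tested. The positions are chr5:112255570-112255819 (plus strand) for Crybb1, chr5:113081585-113081834 (minus) for Crybb3, chr5:112252519-112252768 (minus) for Cryba4, chr11:77725294-77725543 (minus) for Cryba1 and chr1:74893144-74893393 (minus) for Cryba2.
Crybb1: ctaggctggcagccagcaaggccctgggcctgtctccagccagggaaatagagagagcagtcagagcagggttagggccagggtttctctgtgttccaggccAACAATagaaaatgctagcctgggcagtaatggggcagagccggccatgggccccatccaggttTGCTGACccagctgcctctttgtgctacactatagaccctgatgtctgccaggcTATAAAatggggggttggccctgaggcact
Crybb3: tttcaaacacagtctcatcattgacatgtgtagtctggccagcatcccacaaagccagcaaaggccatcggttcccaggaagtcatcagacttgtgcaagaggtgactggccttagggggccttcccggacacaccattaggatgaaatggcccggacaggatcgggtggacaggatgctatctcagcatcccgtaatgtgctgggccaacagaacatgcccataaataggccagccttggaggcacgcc
Cryba4: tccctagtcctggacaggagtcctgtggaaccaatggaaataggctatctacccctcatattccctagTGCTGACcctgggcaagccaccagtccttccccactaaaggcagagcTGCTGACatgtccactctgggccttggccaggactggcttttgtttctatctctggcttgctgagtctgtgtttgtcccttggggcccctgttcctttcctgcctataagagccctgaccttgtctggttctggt
Cryba1: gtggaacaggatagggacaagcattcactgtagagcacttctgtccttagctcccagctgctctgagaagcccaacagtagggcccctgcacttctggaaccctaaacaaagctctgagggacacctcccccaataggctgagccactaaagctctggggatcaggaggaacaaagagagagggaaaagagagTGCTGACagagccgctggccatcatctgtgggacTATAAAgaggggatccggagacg
Cryba2: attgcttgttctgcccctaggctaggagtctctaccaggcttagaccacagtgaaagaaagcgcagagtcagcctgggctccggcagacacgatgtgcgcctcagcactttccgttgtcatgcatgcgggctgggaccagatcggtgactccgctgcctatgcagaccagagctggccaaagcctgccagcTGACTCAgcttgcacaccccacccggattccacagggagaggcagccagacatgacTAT

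The search covered 300 bases, with 50 from the start onward, and the same window of all 32851 RefSeq entries, which include several starts for some genes. TGCTGAC was in 3 of 6 members (Crybb1, Cryba4 and Cryba1), against 4.67% of all windows. It lay at -84 to -78 in Crybb1, counted back from the base before the start as -1, and at -57 to -51 in Cryba1. Cryba4 held it in 2 places, -182 to -176 and -135 to -129. TGACTCA was in Cryba2 only among the members, at -59 to -53, and in 5.20% of all windows.

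TATAAA was in Crybb1 (-30 to -25), Cryba1 (-23 to -18) and Cryba2, where it spans the annotated start (-3 to 3) so that only its first letters are printed, against 13.6% of all windows. AACAAT was in Crybb1 only (10.7% of windows) and TGATTA in Crybb2 only (7.97%), on the opposite strand after the start. CACTTCC was in no member (11.0% of windows), and none of these letter runs was in the Crybb3 window. No motif match overlapped another. A match is a description of letters and not a bound site.

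**Figure D5:**
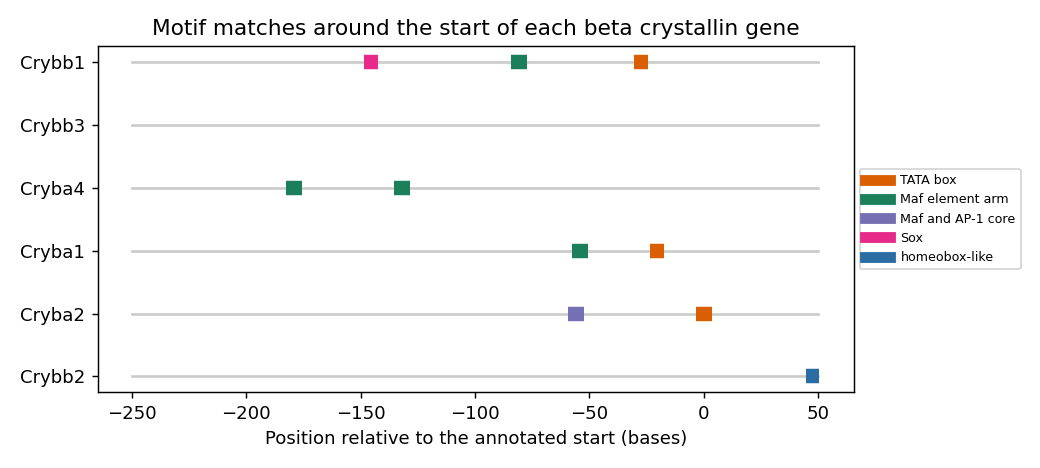
Position of each motif match, in bases relative to the annotated start, from -250 to 50 for the 6 beta crystallin genes in order of their log2 ratio, with Crybb2 last. The TGCTGAC matches lie before the start in Crybb1, Cryba4 and Cryba1, and Crybb3 has no match. The TGACTCA match of Cryba2, a motif added after that sequence was seen, also lies before the start.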

How the data were processed

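The authors deposited linear intensities, 1 value for each probe, for 1 array of lens epithelium and 1 of lens fibers. These were whole numbers from -16 up, so a background had been subtracted. The sources used here do not give the software, background method or any scaling. From these values the arrays were quantile normalized (numpy 2.4.6, pandas 2.3.3). Probes were named through the platform annotation (34885 with 1 symbol, 18 with several, 10378 with none), and a gene was its brightest probe by the mean of both arrays. The IDs of all 6 members were found in the reference gene table.

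Where 1 array alone exceeded its floor, the ratio is a bound, computed against the other floor and given as "at least". Bounds under 1 have no direction: 772 genes. The calculation was tested on simulated data. With 1 array per group no test was possible, and precision is limited by the number of arrays. Alternatives covered scaling, floor, probe rule and fold.

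Members and gene lists were chosen with earlier results of these data known. Genes named are all members, the measured genes of the lists of crystallins, relatives and regulators, 6 genes of nearest log2 ratio, neighbours within 3 places, and up to 4 of the brightest markers per list. Foxe3, Top2a, Fzd6, Gja3, Birc7, Lim2, Bfsp2, Caprin2 and Dnase2b were named after their values were seen. Protein sequences were not analysed here.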

Additional observations from a re-analysis of the deposited data

How the results depend on the processing

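The 5 measured beta crystallin genes kept a positive log2 ratio under each of the 10 alternatives that gave them a value. Their order was the same in each setting with all 5, but most of these settings could not change it. A scale factor for a whole array, a higher floor and the 3-fold cutoff leave the order of genes above the floors as it is. With its second brightest probe, Cryba1 was at 1.16, below the 1.71 of Cryba2, which has no second probe. Their median ran from 2.19 (housekeeping scaling) to 3.27 (loess). Crybb1 had the highest ratio of all genes on both arrays except with no floor, where it stood at rank 3, and with the second brightest probe, which it does not have. With that probe only Cryba1 and Crybb3 had a value, and the count of members higher in fibers was 2, since fewer genes were tested. The counts over all genes, higher in fibers and higher in epithelium, were 1007 and 1225 as reported. They were 296 and 2737 with housekeeping scaling, 346 and 468 with the 99th percentile as the floor, 220 and 256 with the second brightest probe, 666 and 765 with the mean of all probes and 464 and 600 at 3-fold. The balance turned towards fibers with loess (1415 and 842) and with 1 common floor (1007 and 900). Among other named genes, Crybg3 turned to 0.014 with the 95th percentile and to 0.0072 with loess, and Meis2 to -0.38 and Mgarp to -0.064 with housekeeping scaling. The cause was not tested. The signal nearest to the floor among measured member probes was that of the dimmer Crybb3 probe in epithelium (1.69 times). No paired analysis was possible because each group has 1 array.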

Other observations

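A further list held 9 genes on the array that encode proteins with a beta-gamma crystallin domain, relatives of enzyme crystallins or lens-specific proteins of other families, and 3 were measured. Grifin, a galectin-related lens protein, read 77.5 in epithelium and 837 in fibers (10.8-fold higher in fibers). Crybg3, which carries beta-gamma crystallin domains but is not a lens crystallin, read 169.5 and 166.5, a log2 ratio of -0.03 whose sign turned with the scaling. Cryzl1, a quinone reductase-like relative of zeta crystallin, read 259 and 76.5 (3.39-fold higher in epithelium). Crybg1, Crybg2, Cryz, Crym, Cryl1 and Lgsn were below the floor on both arrays.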
